A study of Mus musculus with 32 samples.

Results

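Translation initiation factors are the proteins that bring the small ribosomal subunit, the initiator tRNA and the mRNA together before a protein chain is begun. Genes with a probe set mapped to a symbol of Eif1 to Eif6 in the annotation used were taken as members. The eIF2alpha kinases (Eif2ak genes) and the copies of Eif2s3 were left out, and the probe set of highest mean was used for each gene. This gave 42 of 19505 genes. They fell into 4 genes of the eIF1 and eIF1A family, 3 named for eIF2, 5 subunits of eIF2B, 12 of eIF3, 12 of the eIF4 group, 2 eIF4E-binding proteins (Eif4ebp), 3 of the eIF5 group and Eif6. Eif1, Eif2s1, Eif3g, Eif3j1, Eif4a2, Eif4g1, Eif4ebp3 and Eif5 were not analysed here. Levels are log2 array signals, and a gene is said to have risen or fallen where its Benjamini-Hochberg adjusted p over all 19505 genes was below 0.05 in limma, a linear model that moderates each gene's variance with that of the others. Each value after ± beside a fold change is a standard error, and n = 4 hearts in each group throughout.

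The hearts came from mice with a knock-in mutation in 1 allele of CHCHD10 (C10), a small protein of the mitochondrial intermembrane space, and from C10 WT mice. Each genotype was studied without OMA1, a stress-activated protease of the inner mitochondrial membrane (OMA1-/-), and with 1 copy of it (OMA1+/-), and no group had both copies. At 14 weeks the groups were C10 G58R OMA1-/-, C10 G58R OMA1+/-, C10 WT OMA1-/- and C10 WT OMA1+/-. At 20 weeks they were C10 S59L OMA1-/-, C10 S59L OMA1+/-, C10 WT OMA1-/- and C10 WT OMA1+/-. There were no treatments. Mutation and age cannot be told apart, and each mutant was set against the WT hearts of its own age. The C10 G58R OMA1-/- hearts were taken from mice that survived a genotype with early losses. Each group had 2 males and 2 females, except C10 WT OMA1-/- at 14 weeks with 3 males and C10 G58R OMA1+/- with 3 females.

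The eIF2 complex carries the initiator tRNA, and eIF2B recharges it with GTP after each round. Phosphorylation of eIF2alpha blocks eIF2B, which is the central step of the integrated stress response, and lets the transcription factor ATF4 accumulate. The eIF3 complex holds the small subunit together with the mRNA. The eIF4 factors bind the mRNA cap (eIF4E), unwind the leader (eIF4A with eIF4B and eIF4H) and form the scaffold (eIF4G), and the eIF4E-binding proteins occupy eIF4E unless the kinase mTORC1 phosphorylates them. Eif4ebp1 is known as a target gene of ATF4.

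Replicate hearts of a group correlated at 0.942 to 0.991 over all genes. Oma1 signal was lower in OMA1-/- than in OMA1+/- hearts in all 4 genotype pairs (9.40 against 10.29 in C10 WT and 9.997 against 10.42 in C10 G58R at 14 weeks, 9.08 against 9.76 in C10 WT and 9.22 against 9.78 in C10 S59L at 20 weeks), with no pair below the threshold; the position of its probes relative to the inactivated part of the gene was not known. The 8 cardiomyocyte markers averaged 17.4 to 18.3 on every array. The 5 measured adipocyte markers averaged above 8 on 7 arrays: replicate 1 of C10 G58R OMA1-/-, replicates 1 and 2 of C10 S59L OMA1-/-, replicate 1 of C10 S59L OMA1+/-, and replicates 1, 2 and 3 of 14-week C10 WT OMA1+/-. Among C10 G58R hearts their means were 5.30 to 8.56 (OMA1-/-) and 5.64 to 7.06 (OMA1+/-), against 5.28 to 6.92 and 6.43 to 10.95 in their WT groups, and 6.16 to 12.90 in C10 S59L OMA1-/- and 4.66 to 11.30 in C10 S59L OMA1+/- hearts, against 5.09 to 5.33 and 5.16 to 5.35 in WT, where 5 and 4 of the 5 markers lay below background. The mean of 7 endothelial markers was 11.43 in C10 G58R OMA1-/- hearts, against 12.58 in WT, 11.86 in C10 G58R OMA1+/- hearts, against 12.33, 11.90 in C10 S59L OMA1-/- hearts, against 12.65, and 11.43 in C10 S59L OMA1+/- hearts, against 12.77. The mean of 7 macrophage markers was 10.63, 10.26, 11.06 and 11.91 in these mutant groups, against 9.09, 9.95, 8.94 and 9.05 in their WT groups. Of the 8 cardiomyocyte markers, 3 fell in C10 G58R OMA1-/- hearts (Myh6, Ryr2 and Tnni3), 0 in C10 G58R OMA1+/-, 4 in C10 S59L OMA1-/- (Myh6, Myl2, Ryr2 and Tnni3) and 2 in C10 S59L OMA1+/- hearts (Ryr2 and Tnni3). Of all genes above background 15.6%, 0.504%, 13.4% and 15% fell in these comparisons. Fits with the adipocyte marker mean as a covariate or without the 7 arrays are given beside the results they changed, and the part of the other markers in the results was not tested. In whole hearts, fewer cells of a type and less RNA per cell cannot be told apart.

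More initiation factor genes rose than fell in each mutant group, and the genes above background that fell belonged to the eIF3 set. The counts of falls in C10 G58R OMA1-/- and C10 S59L OMA1+/- hearts also include Eif4e1b of the eIF4 set, which lay below background in every heart. In C10 G58R OMA1-/- hearts against C10 WT OMA1-/- hearts 25 of the 42 members rose and 2 fell, where 18.3% of all genes rose and 15.3% fell. The members' median log2 fold change was 0.89, beside -0.10 over all genes. In C10 G58R OMA1+/- hearts 5 rose (Eif3c, Eif2s2, Eif3a, Eif3i and Eif1ad) and 0 fell, where 1.51% of all genes rose and 0.472% fell, and the median was 0.38 beside -0.03. Unadjusted p was below 0.05 for 20 of the 42 in that comparison, and 39 had a fitted value above 0. With only the groups of the contrast fitted, 1 of the 5 remained (Eif3c). The 3 WT OMA1+/- arrays with high adipocyte markers entered this contrast; with the adipocyte marker mean as a covariate 13 members were called, and without the arrays of high adipocyte markers, with the 1 remaining WT heart assumed to vary like the other groups, 10 members were called. At 20 weeks 24 rose and 1 fell in C10 S59L OMA1-/- hearts (15.8% and 14% of all genes) and 24 rose and 2 fell in C10 S59L OMA1+/- hearts (18.6% and 17.9% of all genes), with medians of 0.83 and 0.99 beside -0.10 and -0.15 over all genes. Normalizing the arrays to 1 distribution (quantile normalization) lowered these 4 medians, in the order given, to 0.51, 0.29, 0.43 and 0.58.

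Because 40 of the 42 members had a mean above background, a level of 6.59 set by the 95th percentile of 1412 olfactory and vomeronasal receptor genes, the same counts were taken over the 9913 genes above it. There 33.0% of genes rose in C10 G58R OMA1-/- hearts, 3.87% in C10 G58R OMA1+/- hearts, 29.6% in C10 S59L OMA1-/- hearts and 33.9% in C10 S59L OMA1+/- hearts. Of the 40 members, 26, 9, 24 and 24 rose in those comparisons. The share of members that rose was therefore above the share of expressed genes in each, described here without a test. Over all 12 comparisons 33 members were called at least once and 9 never.

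**Figure D1:**
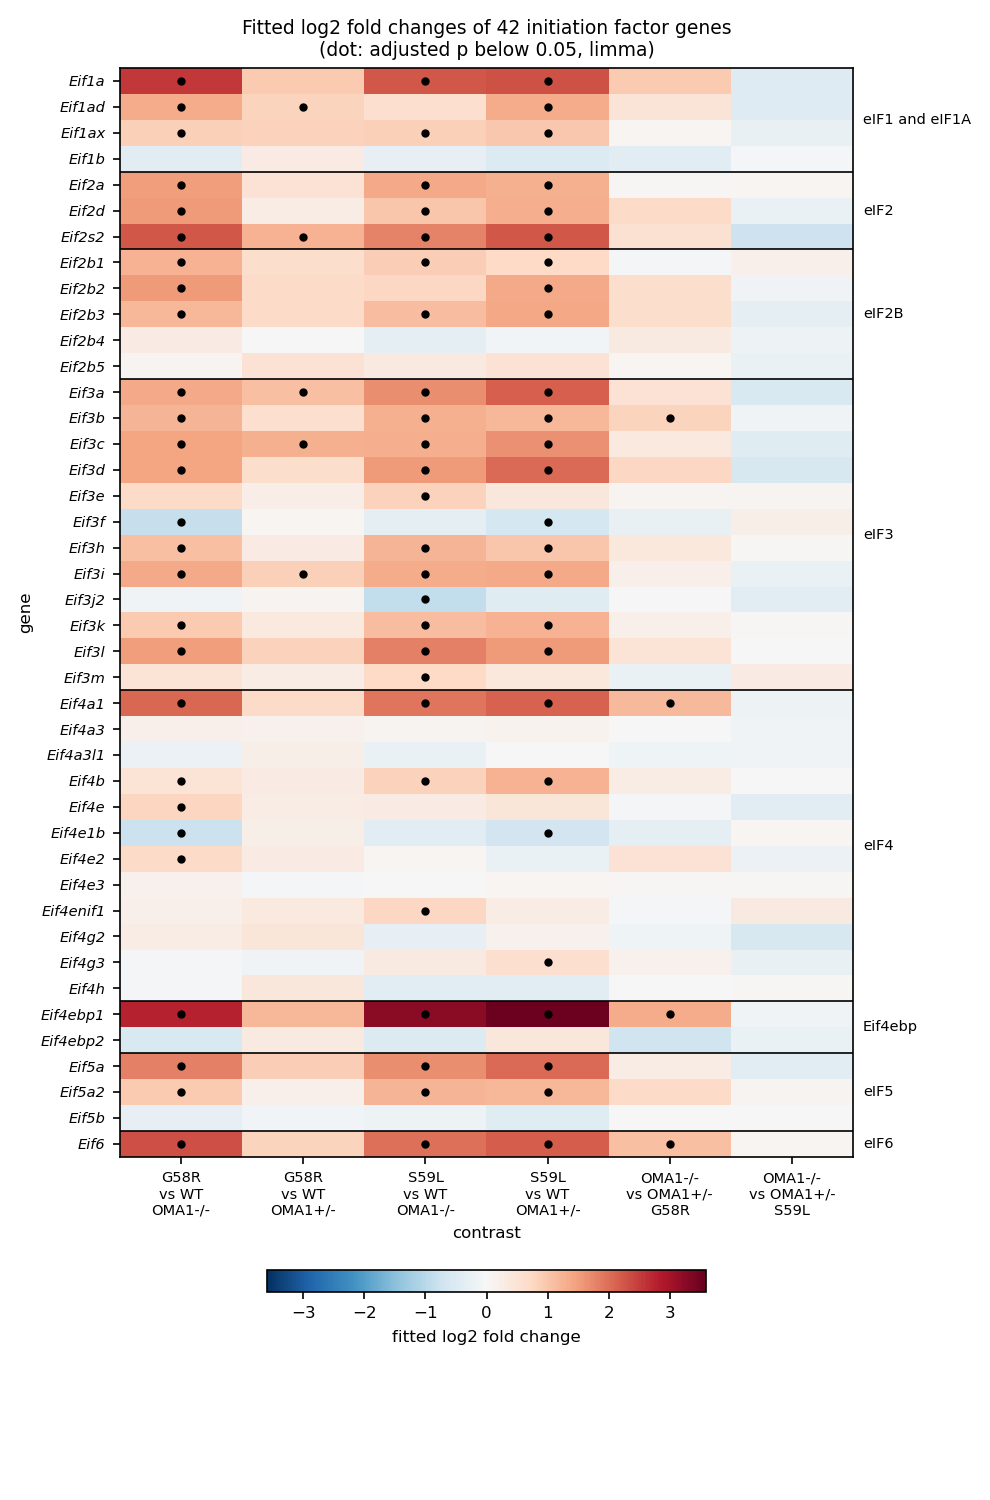
Fitted log2 fold changes (colour) of the 42 initiation factor genes, in rows grouped by complex, in 6 comparisons, in columns, with a dot where the adjusted p was below 0.05. The first 4 columns set mutants against WT hearts and hold 27, 5, 25 and 26 dots, and the last 2 set OMA1-/- against OMA1+/- hearts of 1 mutant and hold 4 and 0.

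Eif4ebp1 showed the largest fold change of the members in 3 of the 4 comparisons of a mutant with WT, the exception being C10 G58R OMA1+/- hearts, and its relative Eif4ebp2 was not called in any. Eif4ebp1 encodes 4E-BP1, the repressor of cap binding by eIF4E. In C10 G58R OMA1-/- hearts Eif4ebp1 stood at 13.78, 13.55, 12.90 and 13.69, against 10.08, 11.06, 10.28 and 11.39 in C10 WT OMA1-/- hearts, a log2 fold change of 2.78 ± 0.32 or 6.86-fold (adjusted p = 6.01e-06). On OMA1+/-, Eif4ebp1 stood at 11.98, 12.09, 12.83 and 11.63 in C10 G58R hearts, against 10.40, 11.08, 11.55 and 10.75 in C10 WT OMA1+/- hearts (1.19 ± 0.32, adjusted p = 0.061). All mutant hearts were above all WT hearts in both comparisons, although the second did not pass the threshold.

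The fitted values of Eif4ebp1 were higher still at 20 weeks. C10 S59L OMA1-/- hearts had 13.23, 12.69, 13.55 and 14.52, against 10.28, 10.02, 10.60 and 10.10 in C10 WT OMA1-/- hearts (3.25 ± 0.30, 9.53-fold, adjusted p = 1.78e-06). C10 S59L OMA1+/- hearts had 13.46, 13.45, 13.86 and 13.69, against 9.88, 10.64, 10.04 and 9.79 in C10 WT OMA1+/- hearts (3.53 ± 0.30, 11.5-fold, adjusted p = 2.67e-07). The C10 S59L OMA1+/- hearts lay close to each other, and the C10 S59L OMA1-/- hearts were spread more widely on both sides of them. Eif4ebp2, which encodes the related repressor 4E-BP2, had fitted values of -0.56 ± 0.35, 0.32 ± 0.35, -0.48 ± 0.35 and 0.41 ± 0.35 in the 4 comparisons, and its groups overlapped in each.

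**Figure D2:**
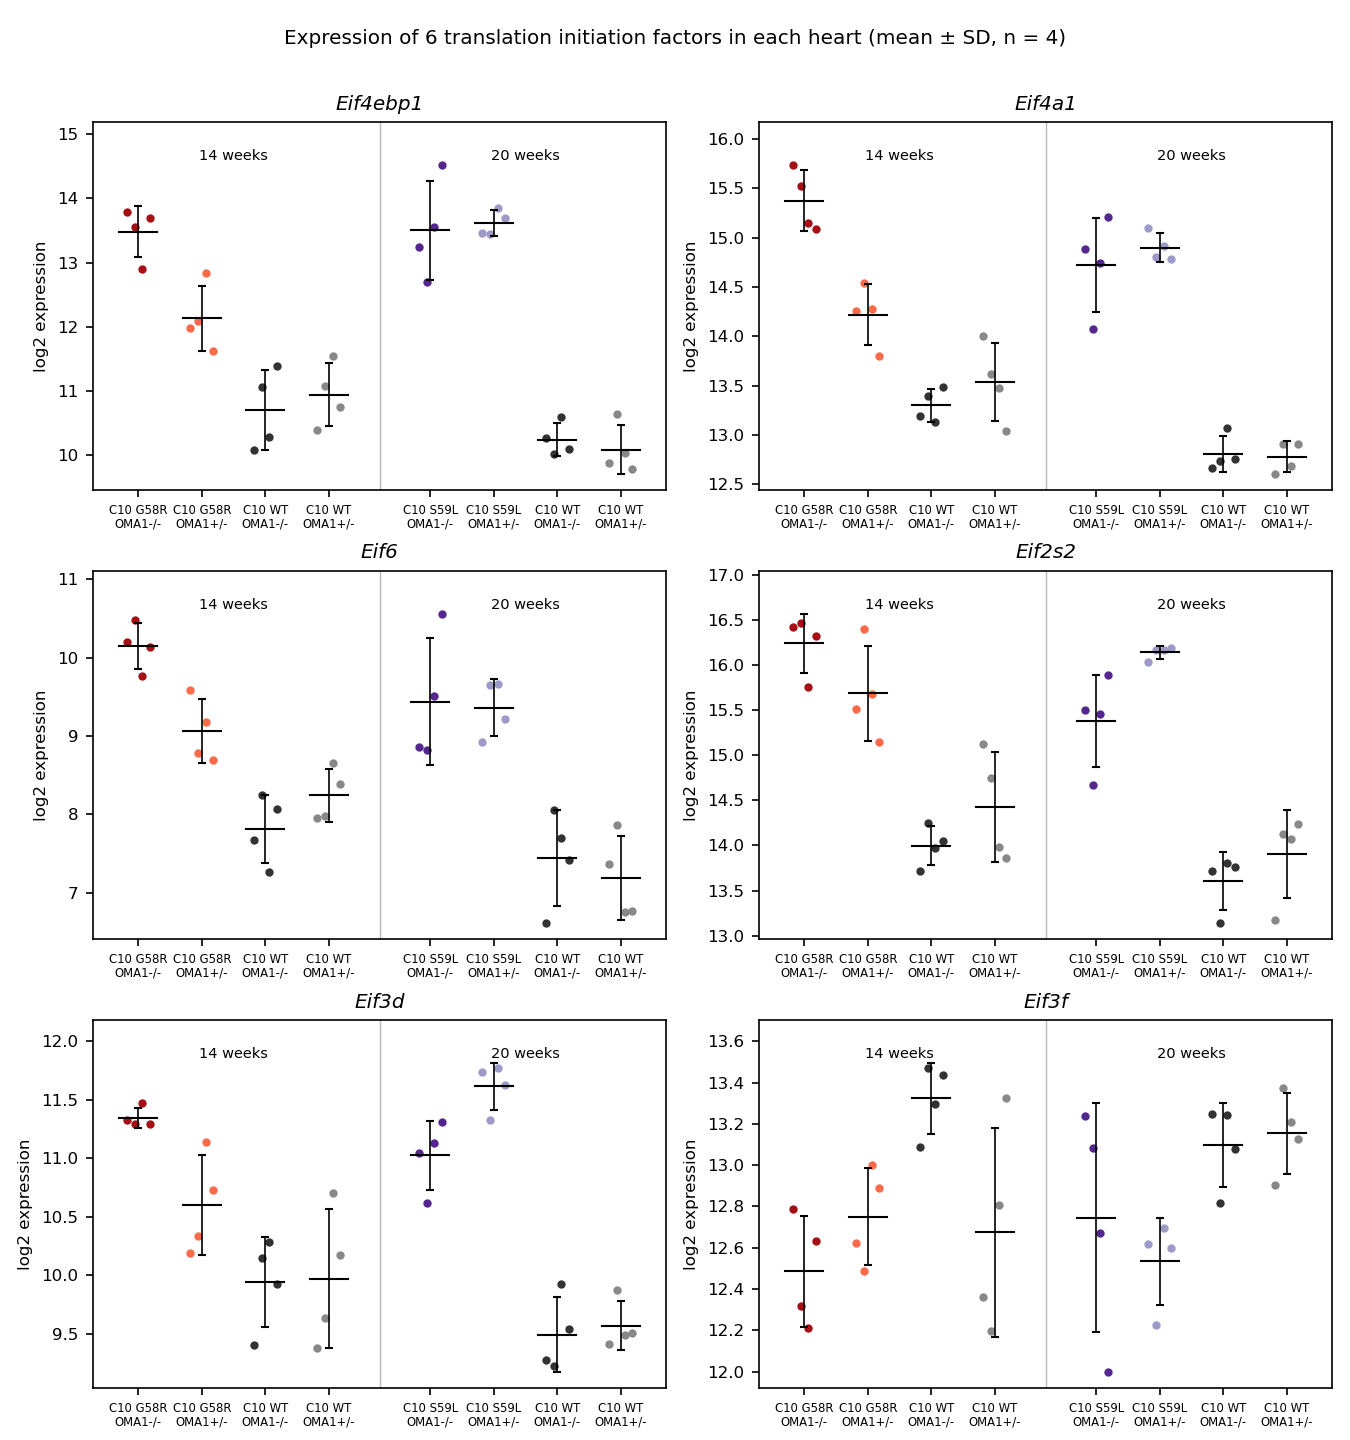
Log2 expression of Eif4ebp1, Eif4a1, Eif6, Eif2s2, Eif3d and Eif3f in each of the 32 hearts (points), with group means (lines) and SDs (bars, n = 4), the 14-week cohort left and the 20-week cohort right of the vertical line. Eif4ebp1 reached 12.69 or more in every C10 S59L heart and stayed at 10.64 or less in every C10 WT heart of that age, while Eif3f was lower in C10 G58R OMA1-/- hearts (12.21 to 12.79) than in C10 WT OMA1-/- hearts (13.09 to 13.47).

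Among the genes named for eIF2, Eif2s2, the beta subunit and the 1 subunit of eIF2 proper among the members, rose in all 4 mutant groups. Its levels were 16.42, 16.46, 15.76 and 16.32 in C10 G58R OMA1-/- hearts, against 13.72, 14.25, 13.97 and 14.05 in C10 WT OMA1-/- hearts (2.24 ± 0.29, adjusted p = 1.9e-05). With OMA1 present, Eif2s2 was 15.51, 16.40, 15.67 and 15.15 in C10 G58R OMA1+/- hearts, against 15.12, 14.74, 13.98 and 13.86 in C10 WT OMA1+/- hearts (1.26 ± 0.29, adjusted p = 0.0318). The lowest mutant and the highest WT heart of that pair nearly touched, and the call was lost when any of 5 of the 16 arrays of the cohort was left out: replicate 3 (1.11) or 4 (1.07) of C10 WT OMA1+/-, or replicate 1 (1.31), 2 (1.02) or 3 (1.26) of C10 G58R OMA1+/-. It was lost also with only the groups of the contrast fitted (adjusted p = 0.158) and with array weights (1.01). At 20 weeks Eif2s2 rose by 1.77 ± 0.27 in C10 S59L OMA1-/- hearts (14.67 to 15.89, against 13.14 to 13.81 in WT) and by 2.24 ± 0.27 in C10 S59L OMA1+/- hearts (16.03 to 16.19, against 13.18 to 14.23 in WT), with adjusted p of 0.000132 and 7.6e-06.

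Eif2a and Eif2d, which encode initiator tRNA carriers outside the eIF2 complex, rose in 3 of the 4 mutant groups. Eif2a rose by 1.50 ± 0.38 in C10 G58R OMA1-/- hearts (adjusted p = 0.00551), 1.37 ± 0.21 in C10 S59L OMA1-/- hearts (0.000134) and 1.29 ± 0.21 in C10 S59L OMA1+/- hearts (0.000137). Eif2d rose by 1.54 ± 0.23, 0.99 ± 0.25 and 1.30 ± 0.25 (adjusted p = 7.45e-05, 0.00688 and 0.000677). Both genes overlapped with WT in C10 G58R OMA1+/- hearts, at 0.52 ± 0.38 for Eif2a and 0.27 ± 0.23 for Eif2d. The C10 WT OMA1+/- hearts of that cohort were themselves spread for Eif2a, at 13.22, 12.60, 12.39 and 11.08. Mean Eif2a was alike in C10 G58R OMA1-/- and OMA1+/- hearts (12.895 and 12.847), against 11.397 and 12.324 in their WT groups.

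Of the 5 subunits of eIF2B, Eif2b1, Eif2b2 and Eif2b3, which encode the alpha, beta and gamma subunits, each rose in C10 G58R OMA1-/- and C10 S59L OMA1+/- hearts, and Eif2b4 and Eif2b5 were not called in any comparison. Eif2b2 was 9.82, 9.89, 9.48 and 9.62 in C10 G58R OMA1-/- hearts, against 8.05, 8.25, 8.39 and 7.96 in C10 WT OMA1-/- hearts (1.54 ± 0.20, adjusted p = 1.79e-05), and it rose by 1.38 ± 0.31 in C10 S59L OMA1+/- hearts (0.00229). In C10 S59L OMA1-/- hearts Eif2b2 stood at 8.71, 7.98, 9.63 and 9.80, against 8.20, 8.11, 8.67 and 8.21 in WT, and the difference of 0.73 ± 0.31 was not called.

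Eif2b3 rose by 1.19 ± 0.25 in C10 G58R OMA1-/- hearts, 1.11 ± 0.29 in C10 S59L OMA1-/- hearts and 1.39 ± 0.29 in C10 S59L OMA1+/- hearts (adjusted p = 0.00161, 0.00797 and 0.00134). For Eif2b1 the rises were 1.24 ± 0.23, 0.88 ± 0.26 and 0.73 ± 0.26 (adjusted p = 0.000515, 0.0175 and 0.0373). Mean Eif2b1 was alike in C10 G58R OMA1-/- and OMA1+/- hearts (10.155 and 10.201), against 8.913 and 9.555 in their WT groups. Both Eif2b1 calls at 20 weeks were lost with quantile normalization (0.57 and 0.35). Leaving out WT replicate 1 (0.77) or mutant replicate 4 (0.73) ended the call in the OMA1-/- pair, and in the OMA1+/- pair it was ended by leaving out WT replicate 1 (0.55) or 2 (0.60) or mutant replicate 2 (0.67), 3 (0.67) or 4 (0.74). The catalytic subunit Eif2b5 stood close to background, between 6.08 and 7.93 over all 32 hearts, as did Eif2b4, between 6.04 and 7.40. Eif2b5 had fitted values of 0.09 in C10 G58R OMA1-/-, 0.52 in C10 G58R OMA1+/-, 0.32 in C10 S59L OMA1-/- and 0.53 in C10 S59L OMA1+/- hearts, and none passed.

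In the eIF3 set most subunit genes rose in 3 of the 4 mutant groups, the exception being C10 G58R OMA1+/- hearts. Of its 12 measured genes, 8 rose and 1 fell in C10 G58R OMA1-/- hearts, 3 rose in C10 G58R OMA1+/- hearts, 10 rose and 1 fell in C10 S59L OMA1-/- hearts, and 8 rose and 1 fell in C10 S59L OMA1+/- hearts. The set's medians were 1.14, 0.47, 1.25 and 1.23. Over all genes above background, counted in the same fit, 31.4%, 2.77%, 27.9% and 32.6% rose. Start regions are shown for 8 of the 12 genes as a description, and none is shown for Eif3e, Eif3h, Eif3i or Eif3j2. A link between the start of a gene and its direction was not tested. Windows of 15 bases before and 15 bases from the annotated start, from RefSeq on GRCm38.p6, are shown for the 8 subunits below, 5′ to 3′ on the strand of the gene, with capitals marking a run of pyrimidines that opens with C at the start itself and goes on for at least 4 more (a terminal oligopyrimidine, or TOP, start, known from mRNAs whose translation follows mTORC1).
Eif3a, chr19:60790679-60790708, minus strand: cggggctcgggcggcggcgctgccgccgcg
Eif3b, chr5:140419290-140419319, plus strand: ctagcggcgcgcggtgacttctgggagtcg
Eif3c, chr7:126566352-126566381, minus strand: ctcacctgctcagagggactcggcagctta
Eif3d, chr15:77970810-77970839, minus strand: gtggtagggccatttacgacagcgctggtc
Eif3f, chr7:108934400-108934429, plus strand: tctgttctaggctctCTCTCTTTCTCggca
Eif3k, chr7:28981874-28981903, minus strand: aaaacaaccggcgctggtgctgaaagcgcc
Eif3l, chr15:79075208-79075237, plus strand: gcgcggagttcttcttccgctctctcccac
Eif3m, chr2:105017013-105017042, minus strand: ttttccggtcggcgtgtttctggatcggag
Eif3f was the 1 of the 31 members with a start region in the table that had such a start by this definition. That share was close to the 3.01% of 27025 genes. The C/EBP-ATF response element was searched on both strands from 250 bases before to 50 after the start: TGATGNAAN was in 0 of the 31 members (4.5% of genes), and its form TGATGCAAT, a case of the same motif, in 0 of the 31 (0.222% of genes). These are descriptions of the letters in those windows only.

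Eif3a and Eif3c encode large core subunits of eIF3 and rose in all 4 mutant groups. Eif3c was 15.60, 15.35, 15.31 and 15.64 in C10 G58R OMA1-/- hearts, against 13.88, 14.24, 14.04 and 14.11 in C10 WT OMA1-/- hearts (1.41 ± 0.19, adjusted p = 2.5e-05). Eif3c was 14.93, 15.03, 15.48 and 15.11 in C10 G58R OMA1+/- hearts, against 13.46, 13.82, 14.13 and 14.01 in C10 WT OMA1+/- hearts (1.28 ± 0.19, adjusted p = 0.00112), the largest rise of a member in that comparison. No mutant heart overlapped with a WT heart in either pair, and both calls were kept whichever 1 array was left out. At 20 weeks Eif3c rose by 1.31 ± 0.24 in C10 S59L OMA1-/- and by 1.65 ± 0.24 in C10 S59L OMA1+/- hearts (adjusted p = 0.000593 and 4.64e-05), the first being 0.86 with quantile normalization.

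Eif3a was 12.30, 12.08, 12.20 and 12.17 in C10 G58R OMA1-/- hearts, against 10.65, 10.91, 10.82 and 10.87 in C10 WT OMA1-/- hearts (1.37 ± 0.19, adjusted p = 3.98e-05). C10 G58R OMA1+/- hearts had Eif3a at 11.59, 11.54, 11.84 and 11.72, against 10.44, 10.42, 11.22 and 10.32 in C10 WT OMA1+/- hearts (1.07 ± 0.19, adjusted p = 0.00583). The groups were again apart, and the call was kept whichever 1 array was left out but lost with only the groups of the contrast fitted (adjusted p = 0.1). In C10 S59L OMA1-/- hearts Eif3a was 12.11, 11.47, 12.19 and 13.11, against 10.70, 10.72, 10.28 and 10.47 in WT (1.68 ± 0.30, 0.000561), and in C10 S59L OMA1+/- hearts it was 12.16, 12.60, 13.34 and 13.02, against 10.42, 10.93, 10.44 and 10.71 in WT (2.16 ± 0.30, 3.47e-05).

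Eif3d, whose product can itself bind the cap of some mRNAs, was 11.33, 11.29, 11.48 and 11.29 in C10 G58R OMA1-/- hearts, against 9.41, 10.15, 10.28 and 9.92 in C10 WT OMA1-/- hearts (1.41 ± 0.27, adjusted p = 0.000784). In C10 S59L OMA1-/- hearts Eif3d was 11.05, 10.62, 11.13 and 11.31, against 9.27, 9.22, 9.93 and 9.54 in WT (1.53 ± 0.21, adjusted p = 4.94e-05). C10 S59L OMA1+/- hearts had Eif3d at 11.74, 11.33, 11.77 and 11.63, against 9.41, 9.88, 9.49 and 9.50 in WT (2.05 ± 0.21, adjusted p = 1.3e-06). C10 G58R OMA1+/- hearts, at 10.19, 10.34, 11.14 and 10.73, overlapped with their WT hearts at 9.38, 9.63, 10.71 and 10.17, and Eif3d was not called there (0.63 ± 0.27).

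Eif3b, Eif3h, Eif3i, Eif3k and Eif3l rose in C10 G58R OMA1-/- hearts and in both C10 S59L groups, by 0.93 to 1.50 in the first, 1.12 to 1.82 in C10 S59L OMA1-/- and 1.0 to 1.54 in C10 S59L OMA1+/- hearts. The smallest of the first, that of Eif3k, was 0.51 with quantile normalization and no longer called (adjusted p = 0.052). Quantile normalization left Eif3k called at 0.68 and 0.79 in the C10 S59L groups (1.12 and 1.26 as deposited), and Eif3h at 0.66, 0.77 and 0.55 in the 3 comparisons (1.08, 1.22 and 1.0). Eif3l had the largest rise of them in each, at 1.50 ± 0.22, 1.82 ± 0.21 and 1.54 ± 0.21 (adjusted p = 5.89e-05, 1.35e-05 and 3.31e-05). In C10 G58R OMA1+/- hearts Eif3i alone of these 5 was called (0.87 ± 0.20, adjusted p = 0.0301), and that call was lost with quantile normalization (0.68, adjusted p = 0.0573), with all 32 arrays fitted (adjusted p = 0.0612), with only the groups of the contrast fitted (0.152), with array weights (0.80) and without replicate 2 (0.79) or 4 (0.76) of C10 WT OMA1+/- or replicate 2 (0.74), 3 (0.91) or 4 (0.87) of C10 G58R OMA1+/-. Eif3e and Eif3m, which encode PCI-domain subunits of the complex, passed the threshold in C10 S59L OMA1-/- hearts, at 0.82 ± 0.20 and 0.73 ± 0.21 (adjusted p = 0.00553 and 0.0172), and both calls were lost with quantile normalization (0.40 and 0.26). The Eif3m call was lost also without replicate 4 (0.62) of C10 WT OMA1-/- or replicate 4 (0.60) of C10 S59L OMA1-/-.

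Eif3f and Eif3j2 went the other way. Eif3f, which encodes an MPN-domain subunit of eIF3, was 12.79, 12.32, 12.21 and 12.63 in C10 G58R OMA1-/- hearts, against 13.09, 13.47, 13.29 and 13.44 in C10 WT OMA1-/- hearts (-0.84 ± 0.23, adjusted p = 0.00959), and all 4 mutant hearts were below all 4 WT hearts. It was 12.62, 12.23, 12.70 and 12.60 in C10 S59L OMA1+/- hearts, against 12.90, 13.37, 13.21 and 13.13 in C10 WT OMA1+/- hearts (-0.62 ± 0.24, adjusted p = 0.048), a call lost in 11 of 16 fits with 1 array left out (values from -0.70 to -0.52 over the 16), and it was -1.10 with quantile normalization (adjusted p = 0.00279). In the 2 other comparisons Eif3f overlapped, at 0.08 ± 0.23 in C10 G58R OMA1+/- and -0.35 ± 0.24 in C10 S59L OMA1-/- hearts. At 14 weeks the C10 WT OMA1-/- hearts had the highest mean (13.323). The C10 G58R OMA1-/- mean (12.487) was nearer to those of C10 G58R OMA1+/- (12.75) and C10 WT OMA1+/- hearts (12.674). Eif3j2 fell by 0.88 ± 0.21 on the log2 scale in C10 S59L OMA1-/- hearts (9.28 to 10.08, against 10.24 to 10.62 in WT, adjusted p = 0.00481); it has a near-identical copy, Eif3j1, whose transcripts its probes may also detect.

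The eIF4 set was divided between 1 strongly raised helicase and many members with small values. Of 12 genes, 4 rose and 1 fell in C10 G58R OMA1-/- hearts, 0 in C10 G58R OMA1+/- hearts, 3 rose in C10 S59L OMA1-/- hearts, and 3 rose and 1 fell in C10 S59L OMA1+/- hearts, with medians of 0.19, 0.27, 0.09 and 0.13. The shares that rose (33.3%, 0%, 25% and 25%) were close to or below those of all genes above background (31.4%, 2.77%, 27.9% and 32.6%). The 12 include Eif4e1b and Eif4a3l1, whose means (5.924 and 6.3) lay below background and neither of which rose. Without these genes the shares above 0% would be somewhat higher. The set did not clearly stand apart in these counts, and this was not tested. Both falls were of Eif4e1b, a germ-cell form of the cap-binding protein that lay below background in every heart, so the fitted values were neither measured changes nor bounds.

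Eif4a1, the RNA helicase of the cap complex, was 15.74, 15.52, 15.14 and 15.09 in C10 G58R OMA1-/- hearts, against 13.19, 13.39, 13.14 and 13.48 in C10 WT OMA1-/- hearts (2.07 ± 0.22, 4.21-fold, adjusted p = 2.7e-06). C10 G58R OMA1+/- hearts had Eif4a1 at 14.25, 14.54, 14.28 and 13.80, against 14.00, 13.62, 13.47 and 13.04 in C10 WT OMA1+/- hearts, and with 1 mutant heart below the highest WT heart the difference of 0.68 ± 0.22 was not called (adjusted p = 0.116). At 20 weeks no mutant heart overlapped with a WT heart. Eif4a1 was 14.88, 14.07, 14.74 and 15.21 in C10 S59L OMA1-/- hearts, against 12.66, 12.74, 13.07 and 12.76 in WT (1.92 ± 0.21, adjusted p = 9.72e-06), and 15.10, 14.80, 14.92 and 14.78 in C10 S59L OMA1+/- hearts, against 12.60, 12.91, 12.69 and 12.91 in WT (2.12 ± 0.21, adjusted p = 1.23e-06).

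Eif4a3, a relative of Eif4a1 that works in the exon junction complex, stayed between 10.48 and 11.31 in all 32 hearts, was never called, and had fitted values of 0.11 to 0.19 in the 4 comparisons. Its near-identical copy Eif4a3l1 was above background on 5 of 32 arrays. The helicase cofactor Eif4b rose in C10 S59L OMA1+/- hearts (13.08 to 13.99, against 12.14 to 12.83 in WT, 1.25 ± 0.22, adjusted p = 0.000326) and in C10 S59L OMA1-/- hearts (0.84 ± 0.22, adjusted p = 0.00874). With quantile normalization the first was 0.79 and still called, and the second was lost (0.39, adjusted p = 0.149). In C10 G58R OMA1-/- hearts Eif4b was 13.48, 13.44, 13.48 and 13.46, against 12.81, 13.10, 12.90 and 13.06 in WT. That rise of 0.50 ± 0.18 (adjusted p = 0.04) was lost in 7 of 16 fits with 1 array left out (0.45 to 0.54 over the 16), with sex as a covariate (adjusted p = 0.0657), and with quantile normalization (0.06). The other cofactor, Eif4h, was not called against WT in any group.

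Eif4e, the cap-binding protein that Eif4ebp1 represses, passed the threshold in C10 G58R OMA1-/- hearts, at 12.26, 13.01, 12.75 and 12.39, against 11.54, 11.83, 11.78 and 12.13 in C10 WT OMA1-/- hearts (0.79 ± 0.25, adjusted p = 0.0213). The call was lost without replicate 1 (0.69) of C10 WT OMA1-/-, replicate 2 (0.65) of C10 G58R OMA1-/- or replicate 3 (0.74), and with quantile normalization (0.42, adjusted p = 0.179). Its fitted values were 0.25 ± 0.25 in C10 G58R OMA1+/-, 0.31 ± 0.30 in C10 S59L OMA1-/- and 0.42 ± 0.30 in C10 S59L OMA1+/- hearts, with overlap in each. Mean Eif4e was alike in C10 G58R OMA1-/- and OMA1+/- hearts (12.604 and 12.67). Their WT groups differed more (11.818 and 12.416), with the C10 WT OMA1+/- hearts at 12.90, 12.76, 12.01 and 11.99. What the WT levels contributed to the call was not tested. Eif4e2, a weaker cap binder, rose in C10 G58R OMA1-/- hearts by 0.69 ± 0.24 (adjusted p = 0.0318) although 1 mutant heart overlapped with WT, and the call was lost without replicate 1 (0.60) or 4 (0.64) of C10 WT OMA1-/- or replicate 1 (0.53), 2 (0.66) or 4 (0.71) of C10 G58R OMA1-/-, with quantile normalization (0.36, adjusted p = 0.278) and without the arrays of high adipocyte markers (0.53, adjusted p = 0.107). Eif4e3 was not called. Of the scaffold proteins, Eif4g2 was not called, at 0.28 ± 0.17, 0.43 ± 0.17, -0.31 ± 0.24 and 0.15 ± 0.24, and Eif4g3, near background in most hearts, rose in C10 S59L OMA1+/- hearts by 0.60 ± 0.20 (7.11 to 7.32, against 6.29 to 7.03 in WT, adjusted p = 0.0291), a call lost without replicate 3 (0.49) or 4 (0.53) of C10 WT OMA1+/- or replicate 1 (0.56), 2 (0.59) or 3 (0.61) of C10 S59L OMA1+/-, with all 32 arrays fitted (adjusted p = 0.0721), with quantile normalization (0.0654) and without the arrays of high adipocyte markers (0.0637). Eif4enif1, the nuclear import partner of eIF4E, rose by 0.73 ± 0.19 in C10 S59L OMA1-/- hearts (adjusted p = 0.00873), and not with quantile normalization (0.38).

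Eif6, Eif5a and Eif1a were among the members with the largest rises outside the complexes above. Eif6 encodes an anti-association factor that keeps the large ribosomal subunit from joining too early and works in its biogenesis. It was 10.20, 10.47, 9.76 and 10.13 in C10 G58R OMA1-/- hearts, against 7.67, 8.25, 7.26 and 8.06 in C10 WT OMA1-/- hearts (2.33 ± 0.25, 5.03-fold, adjusted p = 3.07e-06). Levels of Eif6 in C10 G58R OMA1+/- hearts were 9.58, 8.79, 9.17 and 8.69, against 7.96, 7.97, 8.65 and 8.39 in WT, and with no overlap between the groups the difference of 0.82 ± 0.25 did not pass (adjusted p = 0.105). In C10 S59L OMA1-/- hearts it rose by 1.99 ± 0.38 (8.82 to 10.56, against 6.61 to 8.05 in WT, adjusted p = 0.000929) and in C10 S59L OMA1+/- hearts by 2.18 ± 0.38 (8.92 to 9.66, against 6.75 to 7.87 in WT, adjusted p = 0.000299).

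Eif5a, which encodes a factor that helps ribosomes through difficult stretches and carries the amino acid hypusine, was 16.86, 16.79, 17.10 and 16.43 in C10 G58R OMA1-/- hearts, against 14.76, 14.85, 15.15 and 15.12 in C10 WT OMA1-/- hearts (1.82 ± 0.24, adjusted p = 1.9e-05). Eif5a rose by 1.68 ± 0.20 in C10 S59L OMA1-/- and 2.03 ± 0.20 in C10 S59L OMA1+/- hearts (adjusted p = 1.86e-05 and 1.19e-06). In C10 G58R OMA1+/- hearts all 4 mutants (16.33 to 16.64) were above all 4 WT hearts (14.90 to 16.11), and the adjusted p of 0.0583 did not pass. Its paralog Eif5a2 was called in the same 3 comparisons. In C10 S59L OMA1-/- hearts Eif5a2 was 7.01 to 8.08, and all 4 WT hearts were below background. The mutant mean lay 1.0 above background on the log2 scale (measured means 7.59 against 6.37). As a lower bound of the rise of Eif5a2 that value leaves out the spread of the mutant hearts (SD 0.467). The Eif5a2 call in C10 G58R OMA1-/- hearts was lost without replicate 1 (0.89) or 3 (0.85) of C10 WT OMA1-/- and with quantile normalization (0.80, adjusted p = 0.0508). Eif5b, the GTPase of subunit joining, was not called in any comparison.

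Eif1a, which encodes a factor of start codon scanning, rose by 2.54 ± 0.44 in C10 G58R OMA1-/- hearts (10.57 to 11.73, against 8.27 to 8.89 in WT, adjusted p = 0.000304), 2.23 ± 0.25 in C10 S59L OMA1-/- hearts (1.11e-05) and 2.30 ± 0.25 in C10 S59L OMA1+/- hearts (3.48e-06). Eif1ax, its near-identical X-linked copy, rose by 0.85 ± 0.22, 0.87 ± 0.25 and 0.98 ± 0.25 (adjusted p = 0.00583, 0.0142 and 0.00526), and all 3 calls were lost with quantile normalization (0.50, 0.53 and 0.58). The second was lost also without replicate 4 of C10 S59L OMA1-/- (0.68) and with only the groups of the contrast fitted (adjusted p = 0.0596). The probes of either gene may detect transcripts of the other. Eif1ad, a relative with a role in ribosome maturation, rose by 1.34 ± 0.20 in C10 G58R OMA1-/- and 1.35 ± 0.24 in C10 S59L OMA1+/- hearts (adjusted p = 7.1e-05 and 0.000395), and its rise of 0.80 ± 0.20 in C10 G58R OMA1+/- hearts (adjusted p = 0.0446) was lost in 12 of 16 fits with 1 array left out (0.72 to 0.95 over the 16) and under 7 of the 11 other alternatives (0.62 to 0.96 over the 11). Eif1b was not called against WT in any group.

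**Figure D3:**
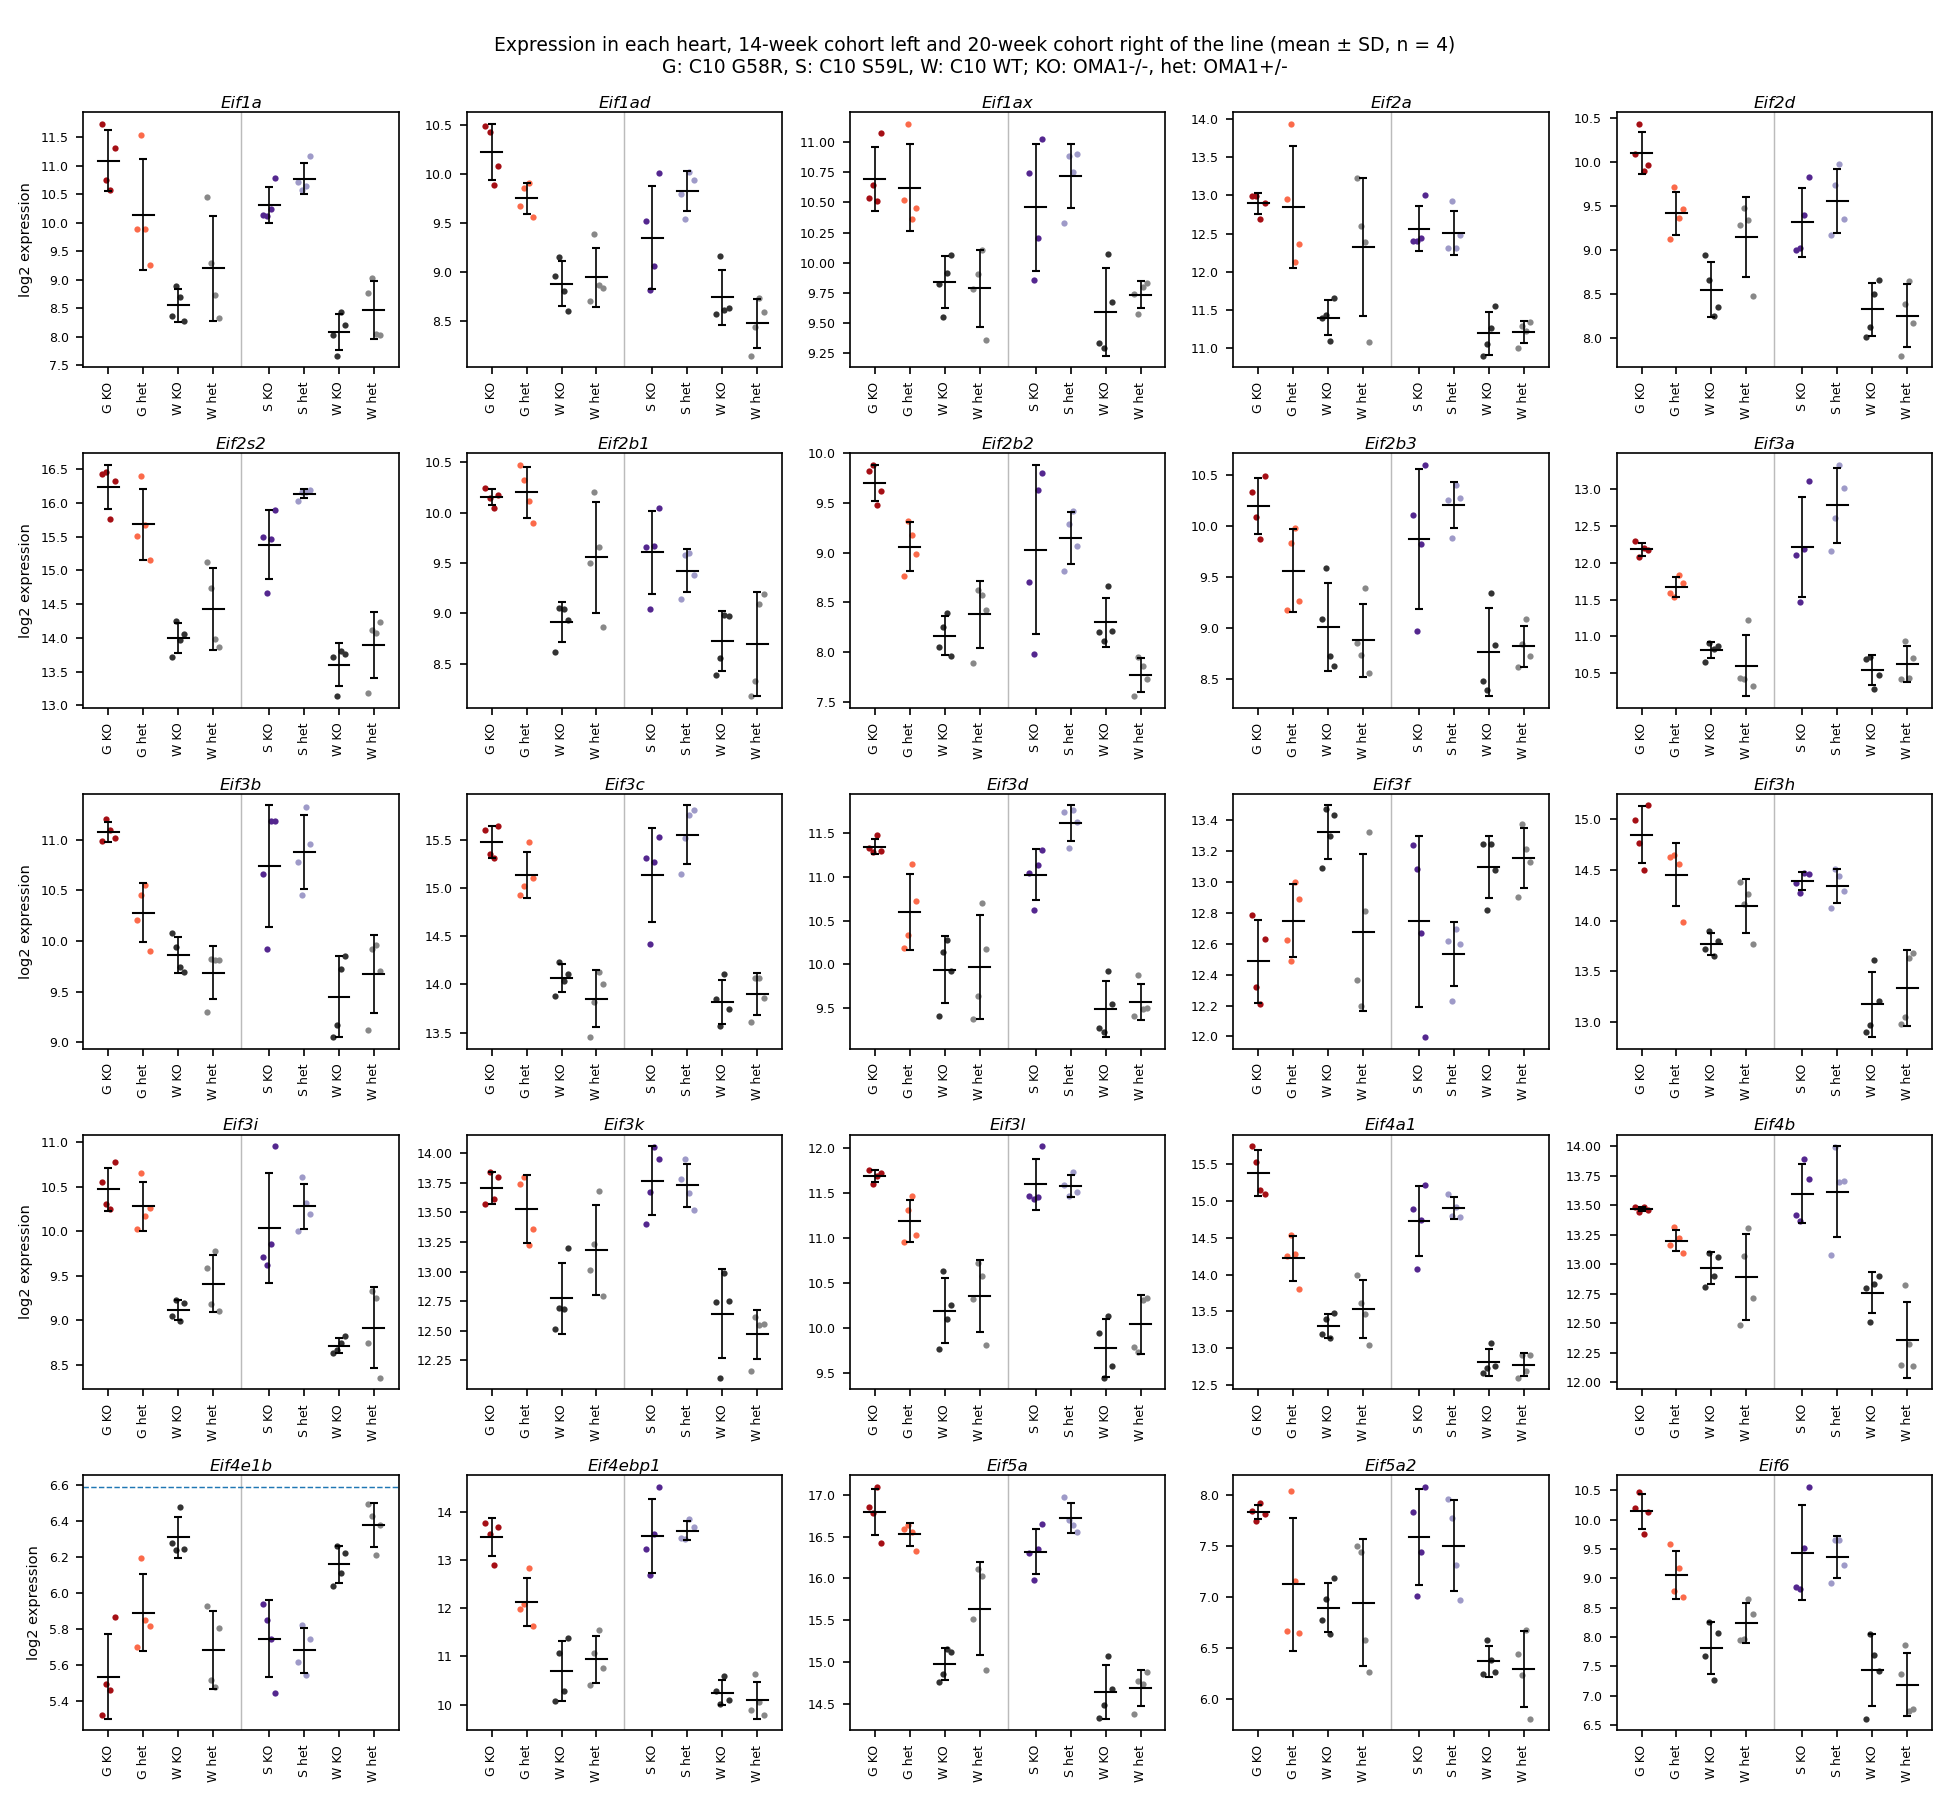
Log2 expression in each heart (points) with group means and SDs (n = 4) for the 25 members called in 2 or more of the 12 comparisons, grouped by complex, 14-week hearts left and 20-week hearts right of each line; the dashed line in the Eif4e1b panel is the background of 6.59. In most panels the mutant groups lie above the WT groups of their cohort, and Eif3f and Eif4e1b are the panels with mutant groups below.

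Within C10 G58R hearts, 4 members rose and 0 fell in OMA1-/- against OMA1+/- hearts, where 3.25% of all genes rose and 1.24% fell, and the members' median was 0.19. Of the 9913 genes above background, 495 rose and 216 fell, beside 4 and 0 of the 40 such members. The 4 members were Eif4ebp1 (1.35 ± 0.32, adjusted p = 0.0211), Eif4a1 (1.16 ± 0.22, 0.00439), Eif6 (1.08 ± 0.25, 0.019) and Eif3b (0.80 ± 0.19, 0.0193). For each of the 4 genes, all C10 G58R OMA1-/- hearts were above all C10 G58R OMA1+/- hearts, with the nearest hearts of Eif4ebp1 at 12.90 and 12.83. The Eif4a1 call was kept whichever array was left out. The Eif4ebp1 call was lost without replicate 1 (1.25), 2 (1.32) or 4 (1.28) of C10 G58R OMA1-/- or replicate 1 (1.30) or 4 (1.18) of C10 G58R OMA1+/-, and without the arrays of high adipocyte markers (1.25, adjusted p = 0.0514), the Eif3b call without replicate 2 (0.75) of C10 G58R OMA1-/- or replicate 1 (0.77) or 4 (0.67) of C10 G58R OMA1+/-, and the Eif6 call without replicate 1 (1.06) or 2 (0.97) of C10 G58R OMA1-/- or replicate 4 (0.96) of C10 G58R OMA1+/-. With all 32 arrays fitted the calls of Eif3b and Eif6 were lost (adjusted p = 0.067 and 0.064).

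Within C10 S59L hearts, 0 members passed the threshold in limma, where 0.22% of all genes rose and 0.625% fell, with a median of -0.14 and 3 members (Eif2s2, Eif3d and Eif4g2) at an unadjusted p below 0.05. Their fitted values were -0.76 ± 0.27, -0.59 ± 0.21 and -0.57 ± 0.24. The 95% interval of Eif4ebp1 was -0.75 to 0.52, that of Eif4a1 was -0.62 to 0.27, and that of Eif6 was -0.72 to 0.87. Atf4 was lower in C10 S59L OMA1-/- hearts (13.17 to 15.18) than in C10 S59L OMA1+/- hearts (15.63 to 15.89), by -1.74 ± 0.34 (adjusted p = 0.0202), and its target Asns by -1.93 ± 0.36 (0.0176). The C10 S59L OMA1-/- mean of Atf4 (14.019) was still above that of C10 WT OMA1-/- hearts (12.349). In C10 G58R hearts mean Atf4 was 15.095 on OMA1-/- and 14.629 on OMA1+/-. A link between Atf4 and the members was not tested.

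In C10 WT hearts 0 members passed in OMA1-/- against OMA1+/- hearts at 14 weeks (0% of all genes rose and 0% fell; 9 members at an unadjusted p below 0.05) and 0 at 20 weeks (0% rose and 0.00513% fell; 1 member at an unadjusted p below 0.05).

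**Figure D4:**
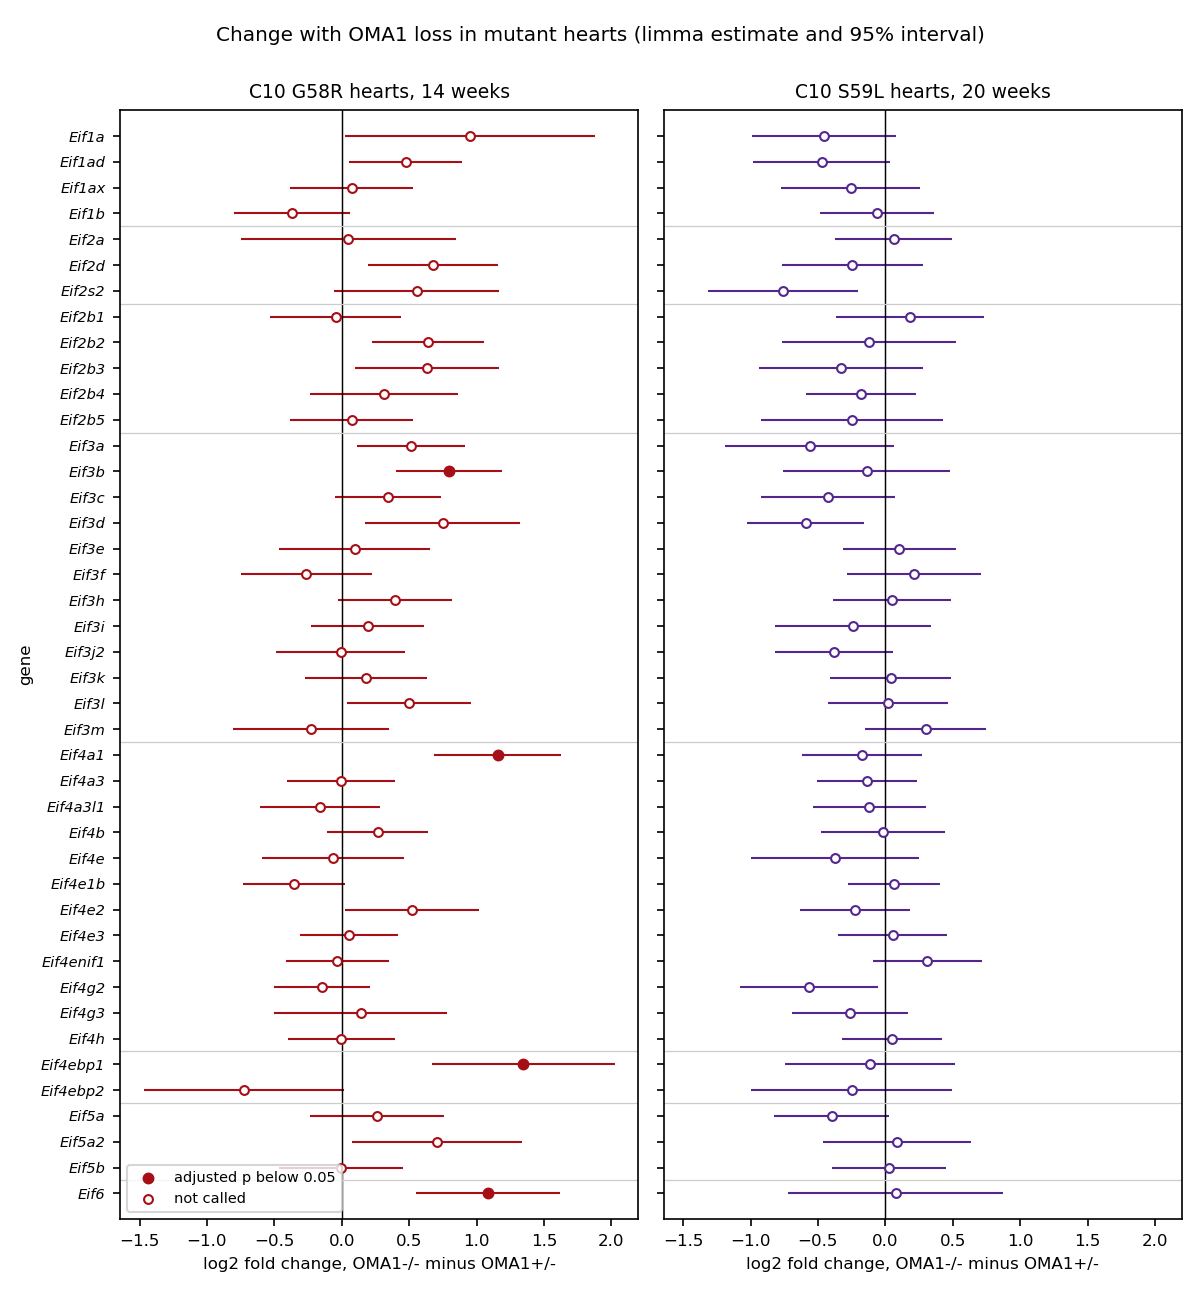
Fitted log2 fold change of OMA1-/- against OMA1+/- hearts (points) with 95% intervals (lines) for the 42 members, in C10 G58R hearts at 14 weeks (left) and C10 S59L hearts at 20 weeks (right); filled points have an adjusted p below 0.05. The 4 filled points are Eif3b, Eif4a1, Eif4ebp1 and Eif6 in C10 G58R hearts, at 0.80 to 1.35, and no point is filled in C10 S59L hearts.

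The difference between these effects was tested directly. The effect of C10 G58R was larger on OMA1-/- than on OMA1+/- for 3 members and smaller for 1 (2.24% and 0.887% of all genes): Eif6 (1.52 ± 0.36, adjusted p = 0.0278), Eif4a1 (1.39 ± 0.32, 0.0227) and Eif2d (1.27 ± 0.33, 0.0394), and Eif4e1b below background. For Eif4ebp1 this difference was 1.59 ± 0.46 (adjusted p = 0.0666). Of the 9913 genes above background, 353 had an effect called larger on OMA1-/- and 156 smaller, beside 3 and 0 of the 40 such members. None of the 4 calls remained without the arrays of high adipocyte markers, 3 of which are among the 4 C10 WT OMA1+/- hearts; the values were then 1.64 for Eif6, 0.78 for Eif4a1 and 0.61 for Eif2d. With the adipocyte marker mean as a covariate none of the 4 remained either, at 1.54 for Eif6, 0.82 for Eif4a1 and 0.90 for Eif2d. The call of Eif6 was lost with all 32 arrays fitted (adjusted p = 0.0728) and that of Eif2d with quantile normalization (0.0559). The Eif4a1 call was lost also without replicate 1 (1.27) of C10 G58R OMA1-/- or replicate 4 (1.25) of C10 G58R OMA1+/-, that of Eif6 in 6 of 16 such fits (1.33 to 1.69 over the 16), and that of Eif2d in 12 (1.16 to 1.49). For C10 S59L the corresponding test called 0 members (0.0205% and 0.0513% of all genes), with 1 member, Eif1ad, at an unadjusted p below 0.05.

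On OMA1+/-, the effect of C10 G58R at 14 weeks minus that of C10 S59L at 20 weeks was above 0 for 2 members and below 0 for 5 (3.03% and 5.3% of all genes). Of the 9913 genes above background, 438 were called above 0 and 916 below, beside 1 and 5 of the 40 such members. Below 0 were Eif4ebp1 (-2.34 ± 0.46, adjusted p = 0.00145), Eif4a1 (-1.44 ± 0.30, 0.00267), Eif3d (-1.42 ± 0.35, 0.00892), Eif5a (-1.14 ± 0.31, 0.0179) and Eif4b (-0.95 ± 0.27, 0.0273), and above 0 were Eif4h (0.80 ± 0.24, 0.0356) and Eif4e1b. Without the arrays of high adipocyte markers 2 of the 7 remained, Eif4ebp1 and Eif3d. Eif4a1 was then -0.88 (adjusted p = 0.222), Eif5a -0.31 (0.766), Eif4b -0.95 (0.142) and Eif4h 0.46 (0.584). With the adipocyte marker mean as a covariate Eif5a (-0.96, adjusted p = 0.1) and Eif4h (0.87, 0.0613) were not called, and with quantile normalization Eif4b was not (-0.67, 0.0804). Eif5a was not called without replicate 2 (-0.98) or 3 (-1.01) of C10 WT OMA1+/- of the 14-week cohort, Eif4b in 8 of 32 such fits (-1.13 to -0.81 over the 32) and Eif4h in 9 (0.68 to 0.92).

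The effect of OMA1 loss in C10 G58R hearts exceeded that in C10 S59L hearts for 2 members and was below it for 0 (3.66% and 1.26% of all genes). In the same fit 578 of the 9913 genes above background were called above 0 and 217 below. The count of members was near these shares. The 2 members were Eif3d (1.34 ± 0.35, adjusted p = 0.0185) and Eif4a1 (1.33 ± 0.30, 0.00646). Without the arrays of high adipocyte markers they were at 1.11 (0.119) and 0.89 (0.127), and Eif3d was not called without replicate 2 (1.20) of C10 S59L OMA1-/-, an array of that kind.

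Genes of the later steps of translation were read from lists beside the members, and are set beside the shares of all genes above background that rose, 31.4% in C10 G58R OMA1-/-, 2.77% in C10 G58R OMA1+/-, 27.9% in C10 S59L OMA1-/- and 32.6% in C10 S59L OMA1+/- hearts, or fell, 15.6%, 0.504%, 13.4% and 15%. Of 6 genes of termination and ribosome recycling, 4 rose in C10 G58R OMA1-/-, 0 in C10 G58R OMA1+/-, 3 in C10 S59L OMA1-/- and 4 in C10 S59L OMA1+/- hearts, and none fell (66.7%, 0%, 50% and 66.7% rose); the release factor gene Etf1 rose by 1.75 ± 0.26 (adjusted p = 7.61e-05) and the recycling gene Abce1 by 1.88 ± 0.31 (0.000209) in C10 G58R OMA1-/- hearts. Of 9 elongation genes 5, 0, 3 and 6 rose (55.6%, 0%, 33.3% and 66.7%) and 2, 0, 1 and 1 fell in the same order of groups. Eef1a2, the muscle form of the factor that delivers tRNAs, was 14.50 in C10 G58R OMA1-/- hearts, against 16.06 in C10 WT OMA1-/- hearts (-1.56 ± 0.30, adjusted p = 0.000665), and Eef1e1, a component of the tRNA synthetase complex, rose there by 3.07 ± 0.35 (4.85e-06). Of 8 genes of mitochondrial initiation, elongation and release, 1, 0, 0 and 0 rose (12.5% in the first) and 0, 0, 3 and 1 fell (37.5% and 12.5% in the last 2).

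Among 12 partners of the cap complex, 4, 0, 2 and 3 rose (33.3%, 0%, 16.7% and 25%) and 1, 0, 1 and 2 fell, shares close to or below those of all genes above background. Paip2b, a repressor of the poly(A)-binding protein, fell to 8.50 in C10 G58R OMA1-/- hearts, against 9.76 in C10 WT OMA1-/- hearts (-1.26 ± 0.18, adjusted p = 6.02e-05), and to 7.95 in C10 S59L OMA1+/- hearts, against 9.89 in C10 WT OMA1+/- hearts (-1.95 ± 0.24, 9.71e-06). Mknk1, a kinase of eIF4E, rose by 1.10 ± 0.21 in C10 G58R OMA1-/- hearts (0.000728). Of 14 genes of mTORC1 and its regulators, 5, 0, 5 and 7 rose (35.7%, 0%, 35.7% and 50%, beside 31.4%, 2.77%, 27.9% and 32.6%) and 0, 0, 1 and 2 fell. Deptor, an inhibitor of mTOR, rose by 2.42 ± 0.33 in C10 G58R OMA1-/- hearts (3.28e-05), and Mtor and Rptor rose by 1.29 ± 0.25 and 1.67 ± 0.29 in C10 S59L OMA1+/- hearts (0.000655 and 0.000311). Of 7 readouts of the integrated stress response 7, 5, 4 and 7 rose. The study itself followed this response in these hearts, so they are no independent evidence. Sesn2 is counted both there and in the mTORC1 list.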

How the data were processed

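Heart RNA of 32 mice, 4 separate animals in each of 8 groups, was measured on Clariom S mouse arrays. The deposited values are log2 signals per probe set that the authors made in Transcriptome Analysis Console by gene-level SST-RMA; joint normalization of all 32 arrays is neither stated nor excluded by the sources used. Of 28846 rows, 6640 were controls and 2634 carried no gene symbol. The remaining 19572 gave 19505 genes. Arrays hold no read depth, so their number limits the precision.

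Group means were fitted (R 4.3.3, limma 3.58.1, eBayes moderation, two-sided tests, Benjamini-Hochberg over all genes), within each cohort of 16 arrays or over all 32 for differences between cohorts. The code was also run on simulated arrays with independent normal noise. That setting is simpler than these hearts, so the run is a check of the code and not of the calls. Background was the 95th percentile of receptor gene means. Members and gene lists were chosen with earlier results of these data known. Members were named where called, by the largest rises and falls and the smallest p in each set; values by heart are plotted for all 25 members called in 2 or more comparisons and printed for some of them. Start regions came from the RefSeq table of GRCm38.p6, which held 31 of the 42 members. Alternatives were the arrays fitted, sex or adipocyte markers as covariates, a replicate block, quantile normalization, a background filter, eBayes options, array weights, probe set averaging and each array left out. Removal of the arrays of high adipocyte markers was chosen after seeing the data.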

Additional observations from a re-analysis of the deposited data

Results flagged for a closer look

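Of 200 groups of 4 hearts examined for a heart far from the other 3 (by Dixon's test on the gap to its nearest neighbour), 11 held one, where chance gives about 1 in 20. In mutant groups these were Eif2a in replicate 4 (13.007) of C10 S59L OMA1-/-, Eif3l in the same heart (12.02), Eif2s2 in replicate 1 (16.028) of C10 S59L OMA1+/- and Eif3h in replicate 4 (13.988) of C10 G58R OMA1+/-. In 20-week WT groups they were Eif1ad (9.158) and Eif2s2 (13.136) in OMA1-/- replicate 2, and Eif2s2 (13.178) and Eif3k (12.16) in OMA1+/- replicate 1. In 14-week WT groups they were Eif4e1b in OMA1-/- replicate 3 (6.48), Eif3a in OMA1+/- replicate 3 (11.222) and Eif3b in OMA1+/- replicate 1 (9.294).

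Differences between effects passed the adjusted threshold in limma for 13 pairs of gene and test. The effect of C10 G58R differed between OMA1-/- and OMA1+/- hearts for Eif6 (1.52), Eif4a1 (1.39), Eif2d (1.27) and Eif4e1b (-0.98). The C10 G58R effect minus the C10 S59L effect on OMA1+/- passed for Eif4ebp1 (-2.34), Eif4a1 (-1.44), Eif3d (-1.42), Eif5a (-1.14), Eif4b (-0.95), Eif4h (0.80) and Eif4e1b (0.90). The effect of OMA1 loss in C10 G58R minus that in C10 S59L hearts passed for Eif3d (1.34) and Eif4a1 (1.33). The Eif4e1b values lie below background.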

How the results depend on the processing

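The counts of members called in C10 G58R OMA1-/- hearts (27), C10 S59L OMA1-/- hearts (25) and C10 S59L OMA1+/- hearts (26) stayed within 1.5 times under each alternative run, with ranges of 23 to 28, 22 to 28 and 23 to 26 when each array was left out. No call of a member changed sign under any alternative run. Quantile normalization lost 20 of 100 calls, removal of the 7 arrays of high adipocyte markers 15 of 100, and leaving out 1 array 128 of 1744. OMA1 loss in C10 S59L hearts, OMA1 loss in C10 WT hearts at 20 weeks and the interaction of S59L with OMA1 gave 0 throughout. The cause of the changes below was not tested.

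For C10 G58R OMA1+/- hearts (5) the count was 1 with only the contrast's groups fitted, 13 with the adipocyte covariate, 3 with quantile normalization, 9 with genes above background only, 2 with array weights and 10 without the arrays of high adipocyte markers. With 1 array left out it ran from 2 to 6 (2 without replicate 2 or 3 of C10 G58R OMA1+/- or replicate 4 of C10 WT OMA1+/-, and 3 without replicate 1 of C10 G58R OMA1+/-). For OMA1 loss in C10 G58R hearts (4) it was 2 with all 32 arrays fitted and 1 to 6 with 1 left out (2 without replicate 1 of either group, and 1 without replicate 2 of the OMA1-/- or replicate 4 of the OMA1+/- hearts). For OMA1 loss in C10 WT hearts at 14 weeks (0) it was 1 with array weights (Eif3f) and 0 to 6 with 1 left out, the 6 without OMA1+/- replicate 4.

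For the interaction of G58R with OMA1 (4) it was 0 with the adipocyte covariate, 0 also without the 7 arrays of high adipocyte markers, 2 with quantile normalization and 10 with array weights. With 1 array left out it ran from 0 to 10: 0 without replicate 1 of C10 G58R OMA1-/- or replicate 4 of C10 G58R OMA1+/-, 1 without replicate 2 of C10 G58R OMA1-/- or replicate 3 of either WT group, 2 without replicate 1 or 2 of C10 WT OMA1-/- or replicate 2 of C10 WT OMA1+/-, and 10 without replicate 4 of C10 WT OMA1+/-. For the G58R effect minus the S59L effect (7) it was 18 with array weights, 2 without the arrays of high adipocyte markers, and 4 to 16 with 1 left out (4 without replicate 2 or 3 and 16 without replicate 4 of 14-week C10 WT OMA1+/-, and 11 without replicate 2 of C10 G58R OMA1+/-). With quantile normalization 49.7% of all genes called there were above 0, beside 36.4% as deposited. For the difference between the effects of OMA1 loss (2) it was 5 with genes above background only, 9 with array weights, 0 without the arrays of high adipocyte markers, and 1 to 8 with 1 left out (1 without replicate 2 and 8 without replicate 4 of C10 S59L OMA1-/-, and 4 without replicate 3 of C10 G58R OMA1-/- or replicate 2 of C10 G58R OMA1+/-).

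Correlations of the deviations of same-numbered hearts ran from -0.323 to 0.275. In no comparison were all 4 pairs over 0.1, so the numbers were not taken as pairs; 3 of 4 were over it for C10 S59L against WT on OMA1+/- and for OMA1 loss in C10 S59L hearts, where replicates 1 and 2 were female and 3 and 4 male in each group, and 3 and 2 of the 4 pairs correlated best with their own number. With the replicate number as a block, the counts were 27 and 7 for C10 G58R OMA1-/- and OMA1+/- hearts (5 of the 7 shared with the fit without it), 25 and 25 for C10 S59L OMA1-/- and OMA1+/- hearts, 4 for OMA1 loss in C10 G58R hearts, 3 for its interaction, 7 and 2 for the differences between mutations and 0 elsewhere. Of the calls, Eif4e1b (interaction, adjusted p = 0.0627) and Eif3f (C10 S59L OMA1+/-, 0.0591) were lost. Eif2b4, Eif2b5, Eif4g3 and Eif5a2 lay near background, where the signal over background was small.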
